A study of Mus musculus with 13 samples.

Results

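The 10 genes described here are the core of the circadian clock and its best known output: *Bmal1* (also named *Arntl*), *Clock*, *Npas2*, *Per1*, *Per2*, *Per3*, *Cry1*, *Nr1d1*, *Nr1d2* and *Dbp*. They were chosen by name, as the rows of the raw count table whose Ensembl identifier carries one of these symbols, and all 10 were found among 33618 rows. RNA-Seq was done on whole parametrial white adipose tissue (pmWAT), the fat pad beside the uterus, of 7 *Lmna* fl/fl control and 6 *Lmna* iADKO female mice, with 1 library per mouse. Both groups carried *Lmna* alleles with loxP sites around exons 10 and 11, and both were injected with tamoxifen at 50 mg/kg on 5 consecutive days at 12 to 14 weeks of age and dissected 2 weeks posttamoxifen. The iADKO mice also carried 1 copy of *Adipoq*-CreERT2, a tamoxifen-activated recombinase made in mature adipocytes, and the fl/fl mice carried none, so that the recombinase and the loss of *Lmna* cannot be told apart by this design. The mice were housed at 22 °C and in the dark from 18:00 to 6:00. The labels give no hour of dissection, and they give the same batch for all 13 libraries.

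In the molecular clock, the proteins made from *Bmal1* and from *Clock* or its relative *Npas2* pair up and switch on genes that carry an E-box. Among these genes are the *Per* and *Cry* repressors, which shut the pair down in a delayed loop, and *Nr1d1* and *Nr1d2*, which encode the REV-ERB nuclear receptors that repress *Bmal1* through ROR elements. *Dbp* encodes a PAR bZIP transcription factor that activates genes with a D-box and carries the rhythm to output genes. Such a clock runs in adipocytes and in the other cells of adipose tissue, and the mRNA of most of these genes rises and falls over the day.

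The depth was 18854223 to 19776491 counted reads per library, and 16753 genes passed edgeR's filter on low counts, all 10 clock genes among them. Values are CPM, the counts scaled to a common library size after TMM normalization, and differences were tested with edgeR's quasi-likelihood test with Benjamini-Hochberg adjustment over all genes tested. The level of *Lmna* itself was 84.7 ± 7.51 CPM in the 7 fl/fl libraries and 96.7 ± 11.5 CPM in the 6 iADKO libraries (mean ± SD), for a log2 fold change of 0.19 with an adjusted p of 0.0785. It was therefore not lower in the libraries labelled iADKO, the counts cover the whole gene, and every direction below rests on the labels. All 8 adipocyte genes on a list of markers (*Adipoq*, *Plin1*, *Cidec*, *Lep*, *Fabp4*, *Lpl*, *Pck1* and *Retn*) were present and lower in iADKO, with a summed level of 17037 to 29953 CPM in fl/fl and 10487 to 17205 CPM in iADKO. Of 7 macrophage genes, 5 were higher in iADKO, while *Lyz2* and *Itgam* did not pass. The summed level of the 7 genes overlapped between labels (1617 to 4890 CPM in fl/fl and 2806 to 4811 CPM in iADKO). Of all genes tested, 14.1% were higher and 16.3% lower in iADKO. Fewer cells of a type and less RNA per cell cannot be told apart in whole tissue. Replicate 5 of fl/fl had the lowest mean level of the adipocyte genes of its group and replicate 6 of iADKO the highest of its own.

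The promoters of the genes that differed between the labels, *Bmal1*, *Per3* and *Dbp*, and of *Per1* and *Per2* are shown because they hold matches to the letter patterns searched for. These were an E-box, a D-box and a ROR element pattern. Each window runs from 250 bases before to 50 after the start of the gene's canonical transcript on GRCm39, 5′ to 3′ on the gene's strand, and capitals mark a motif on either strand.
Bmal1, chr7:112806393-112806692, plus strand: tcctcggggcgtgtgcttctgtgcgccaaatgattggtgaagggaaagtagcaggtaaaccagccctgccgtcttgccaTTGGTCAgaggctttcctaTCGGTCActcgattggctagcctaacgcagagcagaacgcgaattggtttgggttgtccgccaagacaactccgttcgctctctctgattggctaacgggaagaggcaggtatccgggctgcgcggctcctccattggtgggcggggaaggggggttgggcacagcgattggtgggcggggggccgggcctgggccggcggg
Per3, chr4:151129091-151129390, minus strand: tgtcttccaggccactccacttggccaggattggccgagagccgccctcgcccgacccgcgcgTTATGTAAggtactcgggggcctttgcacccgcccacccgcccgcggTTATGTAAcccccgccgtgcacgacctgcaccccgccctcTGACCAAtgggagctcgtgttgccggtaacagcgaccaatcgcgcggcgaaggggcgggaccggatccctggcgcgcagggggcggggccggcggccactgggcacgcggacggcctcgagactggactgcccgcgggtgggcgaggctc
Dbp, chr7:45354262-45354561, plus strand: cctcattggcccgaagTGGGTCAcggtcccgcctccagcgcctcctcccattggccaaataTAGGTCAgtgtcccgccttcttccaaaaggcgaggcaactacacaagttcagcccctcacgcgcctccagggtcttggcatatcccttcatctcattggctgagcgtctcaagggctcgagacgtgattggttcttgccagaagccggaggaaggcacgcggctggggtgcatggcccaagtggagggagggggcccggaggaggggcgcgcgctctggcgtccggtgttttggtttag
Per1, chr11:68989018-68989317, plus strand: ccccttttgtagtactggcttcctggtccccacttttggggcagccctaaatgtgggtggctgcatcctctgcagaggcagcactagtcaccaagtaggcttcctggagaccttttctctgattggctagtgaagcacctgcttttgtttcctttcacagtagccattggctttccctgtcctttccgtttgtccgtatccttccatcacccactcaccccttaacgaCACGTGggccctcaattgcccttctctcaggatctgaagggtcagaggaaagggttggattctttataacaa
Per2, chr1:91386997-91387296, minus strand: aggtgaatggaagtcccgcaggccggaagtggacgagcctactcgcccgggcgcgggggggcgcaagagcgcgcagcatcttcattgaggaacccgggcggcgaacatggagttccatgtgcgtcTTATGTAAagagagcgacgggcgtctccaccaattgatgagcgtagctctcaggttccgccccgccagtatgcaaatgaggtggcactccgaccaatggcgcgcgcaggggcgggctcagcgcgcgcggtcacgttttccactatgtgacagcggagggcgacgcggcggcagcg
Capitals in *Bmal1* are 2 matches to the ROR element pattern (TNGGTCA, where N is any letter), at -171 to -165 and -152 to -146 from the start. They were found as TTGGTCA and TCGGTCA. Those in *Per3* are 2 D-boxes (TTANGTAA, found as TTATGTAA both times) at -187 to -180 and -140 to -133. A match to the ROR element pattern lies on the other strand at -100 to -94. In *Dbp* they are 2 matches to the ROR element pattern at -234 to -228 and -189 to -183. In *Per1* they are an E-box (CACGTG) at -22 to -17 and in *Per2* a D-box at -125 to -118. No motifs overlapped. *Cry1* held an E-box at -29 to -24, and the windows of *Clock*, *Npas2*, *Nr1d1* and *Nr1d2* held none of the 3 motifs. Among 17952 protein-coding promoters of the same length, 8.84% held the E-box, 1.88% the D-box and 10.4% a match to the ROR element pattern. Only these exact patterns were searched, so variant forms of a motif are not marked, and a window without capitals for a motif may still hold a variant of it. The ROR element pattern allows any letter at N, so a match to it may not be a ROR element. A match of letters is a description of the window and not a binding site.

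Of the 10 clock genes, *Bmal1* was higher in the libraries labelled iADKO, and *Per3* and *Dbp* were lower. *Per3* and *Dbp* fell to about 0.702 and 0.692 times the fl/fl level and *Bmal1* rose to 1.55 times. The other 7 did not pass the test, and their mean levels in iADKO were 0.893 to 1.12 times those in fl/fl. Across all genes tested, 30.5% passed in either direction, 14.1% higher and 16.3% lower, so 3 of 10 is close to the share of all genes. Without fl/fl replicate 5 and iADKO replicate 6, 7189 genes passed in place of 5104, and of the clock genes 1 was higher and 4 were lower. These libraries were picked after the values were seen. For *Dbp* and *Nr1d1* they were the lowest of fl/fl and the highest of iADKO, so leaving them out had to widen those differences. The median log2 fold change was -0.057 over the clock genes and 0.033 over all genes tested. *Bmal1* was above 93.8% of all genes tested in log2 fold change, and *Per3* and *Dbp* were above 8.12% and 7.61% of them.

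**Figure D1:**
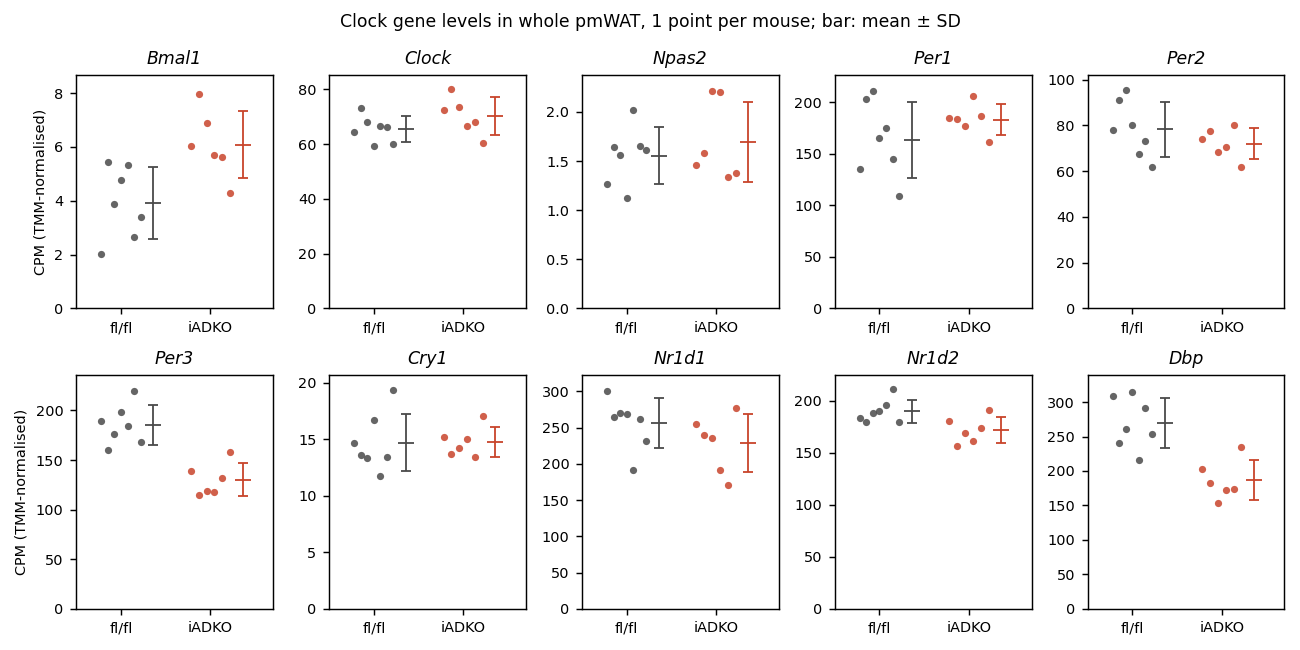
Level of each clock gene in CPM in every library, with fl/fl (7 mice, grey) and iADKO (6 mice, red) on the x axis and the mean ± SD beside the points. All 6 iADKO points of *Per3* lie below all fl/fl points, 5 of 6 do so for *Dbp*, and 5 of 6 lie above all fl/fl points for *Bmal1*.

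*Bmal1*, the activator without which the loop does not run, was the positive limb gene that differed. Its levels in fl/fl replicates 1 to 7 were 2.01, 5.43, 3.87, 4.78, 5.31, 2.65 and 3.39 CPM. Those in iADKO replicates 1 to 6 were 6.03, 7.98, 6.88, 5.71, 5.64 and 4.27 CPM. Of the 6 iADKO libraries 5 were above every fl/fl library, and replicate 6 lay within the fl/fl range. The mean was 3.92 ± 1.32 CPM in fl/fl (SD, n = 7) against 6.08 ± 1.25 CPM in iADKO (SD, n = 6). This gave a log2 fold change of 0.63 ± 0.217 (standard error) and an adjusted p of 0.0400. The gene had only 35 to 171 reads per library, and its relative spread in fl/fl, 33.7%, was the widest of the 10 genes. The call was lost when any 1 of 9 libraries was left out (fl/fl replicates 1, 3, 6 and 7 and iADKO replicates 1 to 5), with log2 fold changes of 0.52 to 0.65 and adjusted p values of 0.0584 to 0.0947. It was kept without fl/fl replicate 5 and iADKO replicate 6 together (0.78, adjusted p = 0.0107). The first lay above the fl/fl mean and the second was the lowest of iADKO, so leaving them out had to widen the difference. *Bmal1* (ENSMUSG00000055116) lies on the plus strand of chromosome 7 from 112806152 to 112914735.

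Neither of its partners passed the test. *Clock*, a histone acetyltransferase and the usual partner, was at 59.3 to 73.1 CPM (median 66.3) in fl/fl and 60.5 to 80.3 CPM (median 70.3) in iADKO. The ranges overlapped, and the log2 fold change was 0.10 ± 0.067 (standard error), with an adjusted p of 0.255. *Clock* shares 2641 bp of its exons with genes on the other strand, *Tmem165* among them, the most of the 10 genes. *Npas2*, which can stand in for *Clock*, was at 1.13 to 2.02 CPM (median 1.62) and 1.34 to 2.21 CPM (median 1.52), on 21 to 46 reads per library. Its log2 fold change was 0.12 ± 0.178 (standard error), with an adjusted p of 0.625, so that a difference of the size of that in *Clock* lay within its error.

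Among the repressors, *Per3* was the only one that differed in this test. *Per3*, the period gene that the clock can run without, was at 189, 160, 177, 199, 185, 219 and 169 CPM in fl/fl replicates 1 to 7. Its levels in iADKO replicates 1 to 6 were 139, 114, 119, 118, 132 and 158 CPM. The groups did not overlap, and iADKO replicate 6 came close to the lowest fl/fl library, replicate 2. Values of 3.93% of all genes tested were lower in iADKO without overlap. The mean was 185 ± 19.7 CPM in fl/fl (SD, n = 7) against 130 ± 16.7 CPM in iADKO (SD, n = 6). This gave a log2 fold change of -0.51 ± 0.0879 (standard error) and an adjusted p of 0.00116. An exact two-sided permutation test of the log2 CPM gave p = 0.000583, the smallest that 7 against 6 libraries allow. The call held with each library left out in turn, with log2 fold changes of -0.57 to -0.47. *Per3* (ENSMUSG00000028957) lies on the minus strand of chromosome 4 from 151081373 to 151129140.

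The other repressors overlapped between labels. *Per1*, which also answers within hours to light and to glucocorticoids, was at 109 to 211 CPM (median 165) in fl/fl and 161 to 207 CPM (median 184) in iADKO, a log2 fold change of 0.17 (adjusted p = 0.350). *Per2*, which the clock needs for a lasting rhythm, was at 61.9 to 95.7 CPM (median 77.9) and 61.7 to 80.2 CPM (median 72.3), a log2 fold change of -0.12 (adjusted p = 0.371). *Cry1*, the stronger repressor of the cryptochromes, was at 11.7 to 19.3 CPM (median 13.6) and 13.4 to 17.1 CPM (median 14.6), and its log2 fold change of 0.0049 (adjusted p = 0.976) changed sign with the scaling. The proportion of the period genes within a library also differed in mean. The log2 ratio of *Per1* to *Per3* averaged -0.21 in fl/fl and 0.50 in iADKO, a difference of 0.71 that was not tested.

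The REV-ERB genes were lower in mean level but not past the threshold. *Nr1d1* (REV-ERBα) was at 301, 265, 271, 268, 192, 262 and 232 CPM in fl/fl and 255, 240, 236, 192, 170 and 277 CPM in iADKO. The lowest fl/fl library, replicate 5, was as low as iADKO replicate 4, and iADKO replicate 6 was above 6 of the 7 fl/fl libraries. The log2 fold change was -0.16 ± 0.118 (standard error), with an adjusted p of 0.306. Without fl/fl replicate 5 and iADKO replicate 6 it was -0.31 (adjusted p = 0.0223). These were the lowest fl/fl and the highest iADKO library, picked after the values were seen, so leaving them out had to widen the difference. The log2 fold change of *Nr1d1* was -0.092 without iADKO replicate 5 (adjusted p = 0.557). With the animal-number range as a block it was -0.081 (adjusted p = 0.725), so that its size depends on single libraries. *Nr1d1* shares 1711 bp of its exons with genes on the other strand, among them *Thra*, and the strand setting of the counting was not given in the sources used here. *Nr1d2* (REV-ERBβ) was at 180 to 211 CPM (median 189) in fl/fl and 156 to 191 CPM (median 171) in iADKO, with 4 of 6 iADKO libraries below all fl/fl libraries. Its log2 fold change was -0.14 ± 0.057 (standard error), with an adjusted p of 0.0735. With each library left out in turn, *Nr1d2* passed in only 1 of 13 fits, and the adjusted p ran up to 0.158. That fit left out iADKO replicate 6, its highest iADKO library (-0.17, adjusted p = 0.0289).

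*Dbp*, the output factor, was at 309, 241, 262, 315, 217, 291 and 254 CPM in fl/fl replicates 1 to 7. Its levels in iADKO replicates 1 to 6 were 203, 182, 153, 172, 174 and 235 CPM. Replicate 6 of iADKO lay above fl/fl replicate 5, and the other 5 iADKO libraries lay below all fl/fl libraries. The mean was 270 ± 36.6 CPM in fl/fl (SD, n = 7) against 187 ± 28.7 CPM in iADKO (SD, n = 6). This gave a log2 fold change of -0.53 ± 0.108 (standard error) and an adjusted p of 0.00284. The call held with each library left out in turn (-0.61 to -0.48). *Dbp* (ENSMUSG00000059824) lies on the plus strand of chromosome 7 from 45354512 to 45359627 and shares 539 bp of exon with *Sphk2* on the other strand.

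The library names carry animal numbers, which were divided here into ranges, and both labels occur in only 2 of them. The labels do not define these ranges, and other ways to divide the numbers were not tested. Within the range with 3 fl/fl and 2 iADKO mice, the difference in mean log2 CPM was -0.47 for *Per3*, -0.49 for *Dbp* and 0.97 for *Bmal1*. Within the range with 2 of each (fl/fl replicates 4 and 5, iADKO replicates 4 and 6) it was -0.49, -0.38 and -0.03. *Per3* thus differed by about the same in both, and that of *Bmal1* was near 0 in the second. With the range as a block in edgeR, *Per3* passed (-0.47, adjusted p = 0.0261), *Dbp* did not (-0.44, adjusted p = 0.0526) and *Bmal1* did not (0.48, adjusted p = 0.247).

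Per kilobase of exon, *Nr1d1* and *Dbp* were the most abundant of the clock genes and *Bmal1* and *Npas2* the least. In fl/fl the levels in CPM per kb were 78.9 for *Nr1d1*, 77.8 for *Dbp*, 21.3 for *Per1*, 21.0 for *Nr1d2*, 17.7 for *Per3*, 11.9 for *Per2*, 3.79 for *Clock*, 2.96 for *Cry1*, 0.339 for *Bmal1* and 0.284 for *Npas2*. The order was the same in iADKO. Between libraries of fl/fl, the ranges of the neighbours *Nr1d1* and *Dbp*, *Per1* and *Nr1d2*, *Nr1d2* and *Per3*, *Clock* and *Cry1*, and *Bmal1* and *Npas2* overlapped, and those of the other neighbours did not. These lengths count every annotated exon, which may be more than is transcribed in this tissue.

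Ratios within a library put the positive limb beside the output. The log2 ratio of *Bmal1* to *Dbp* was -6.13 ± 0.662 (SD, n = 7) over fl/fl libraries and -4.93 ± 0.469 (SD, n = 6) over iADKO libraries, a difference of 1.20. It ran from -7.19 to -5.32 in fl/fl and from -5.75 to -4.46 in iADKO, and iADKO replicate 6 overlapped with fl/fl. The log2 ratio of *Per3* to *Dbp* was -0.54 ± 0.165 and -0.52 ± 0.115, so that their proportion was nearly the same in both labels. The ratio of *Bmal1* to *Per3* was higher by 1.18 in iADKO. Each such difference follows by subtraction from the 2 genes' own differences given above, and these pairs were chosen after the levels were known, so none was tested.

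**Figure D2:**
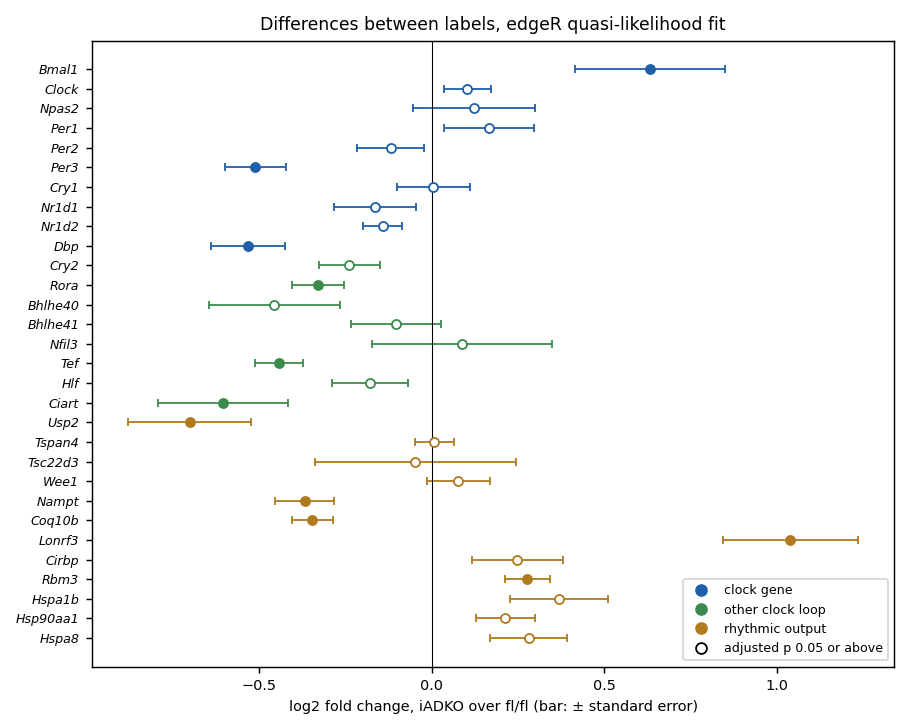
Log2 fold change of iADKO over fl/fl on the x axis, with its standard error, for the 10 clock genes (blue), 8 other clock loop genes (green) and 12 rhythmic output genes (ochre). Filled points passed an adjusted p of 0.05. *Bmal1* is the only filled blue point above 0, and the 3 filled green points lie between -0.60 and -0.33.

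Other genes of the clock loops, taken from a list of 9, moved in 1 direction where they passed. Of the 8 that could be tested, 3 were lower in iADKO and 0 higher, with a median log2 fold change of -0.28 beside 0.033 over all genes tested, and 16.3% of all genes were lower. *Rorb* had 52 reads in all libraries together and was not tested. *Tef*, a PAR bZIP factor like *Dbp*, fell from 519 ± 36.6 CPM (463 to 550) to 382 ± 33.4 CPM (348 to 435) without overlap (log2 fold change -0.44, adjusted p = 0.00073). *Rora*, a nuclear receptor that activates *Bmal1* through ROR elements, fell from 88.9 ± 11.1 CPM to 70.8 ± 3.26 CPM, again without overlap (-0.33, adjusted p = 0.0052). Of all genes tested, 3.93% were lower without overlap. *Ciart*, a repressor of the BMAL1 and CLOCK pair, fell from 15.1 ± 4.42 CPM to 9.90 ± 2.05 CPM (-0.60, adjusted p = 0.0269). Against these, *Hlf*, the third PAR bZIP gene, had -0.18 (adjusted p = 0.230) and *Nfil3*, which represses at D-boxes, 0.087 (adjusted p = 0.820). *Cry2* had -0.24 (adjusted p = 0.0522).

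Genes whose proteins modify the clock proteins showed small differences. Of 15 kinase, ubiquitin ligase and corepressor genes, 2 were higher and 2 lower, with a median log2 fold change of -0.090, beside 14.1% higher and 16.3% lower of all genes tested. *Sirt1*, a deacetylase, rose from 23.9 ± 1.60 CPM to 28.9 ± 2.02 CPM (0.27, adjusted p = 0.00406). *Wdr5*, a subunit of histone methyltransferase complexes, had 0.22 (adjusted p = 0.0103). *Csnk2a1*, the catalytic subunit of casein kinase 2, had -0.16 (adjusted p = 0.0174) and *Prkaa1*, a catalytic subunit of AMPK, -0.25 (adjusted p = 0.0220). *Csnk1d* and *Csnk1e*, the kinases of the PER proteins, had 0.0022 and 0.0021 (adjusted p = 0.973 and 0.976). This count rose to 7 without fl/fl replicate 5 and to 8 without fl/fl replicate 7, where 6619 and 5075 genes passed in all in place of 5104.

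Genes that cycle in many mouse organs moved in both directions. Of 12, 2 were higher and 3 lower, with a median log2 fold change of 0.15, beside 14.1% and 16.3% of all genes tested. *Usp2*, a deubiquitinase, fell from 45.9 ± 15.1 CPM to 28.2 ± 2.21 CPM without overlap (-0.70, adjusted p = 0.0106). *Nampt*, the rate-limiting enzyme of NAD salvage, fell from 188 ± 24.1 CPM to 145 ± 12.5 CPM (-0.37, adjusted p = 0.0060), and *Coq10b*, which binds coenzyme Q, had -0.35 (adjusted p = 0.00108). *Lonrf3* rose from 2.71 ± 0.949 CPM to 5.59 ± 0.730 CPM (1.04, adjusted p = 0.00191), and the cold-induced RNA-binding gene *Rbm3* had 0.28 (adjusted p = 0.00676). The count was 8 without fl/fl replicate 2, where 4412 genes passed in all. The heat shock genes *Hspa1b*, *Hsp90aa1* and *Hspa8*, which follow body temperature over the day, had 0.37, 0.21 and 0.28 and did not pass (adjusted p of 0.0641 to 0.0721). Of 12 genes that respond to glucocorticoids, a hormone signal with its own daily rhythm, only *Klf15* passed, beside 14.1% higher and 16.3% lower of all genes tested. It fell from 112 ± 25.4 CPM to 73.0 ± 8.26 CPM without overlap (-0.62, adjusted p = 0.0045), and the list's median was -0.053. Of all genes tested, 3.93% were lower without overlap. *Fkbp5* and *Tsc22d3*, common readouts of that signal, ranged from 51.5 to 206 CPM and from 130 to 420 CPM within fl/fl alone. Without fl/fl replicate 5, 2 genes of the list passed, and 6619 genes passed in all in place of 5104.

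How the clock genes varied together from mouse to mouse was read after each label's mean log2 CPM had been removed, so that the difference between labels did not enter. Of 45 pairs, 1 passed an adjusted p of 0.05 over the 45 by a permutation test with 100000 shuffles within labels, and 8 had an unadjusted p under 0.05. Pearson's r ran from -0.785 (*Npas2* and *Dbp*, adjusted p = 0.0664) to 0.919, it was above 0 in 20 pairs, and it had the same sign within fl/fl and within iADKO in 36. The pair that passed was *Per3* and *Nr1d2*, named here after the values were seen (r = 0.919, adjusted p = 0.00405, Spearman's rho = 0.874, adjusted p = 0.0301, permutation test, n = 13). It held without the libraries farthest out, iADKO replicate 6 and fl/fl replicate 6 (r = 0.809). Within fl/fl r was 0.861 (exact permutation p = 0.0121) and within iADKO 0.966 (exact permutation p = 0.00139, the smallest that 6 libraries allow). With the replicate number as a block, r was 0.656 (exact permutation p = 0.185).

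**Figure D3:**
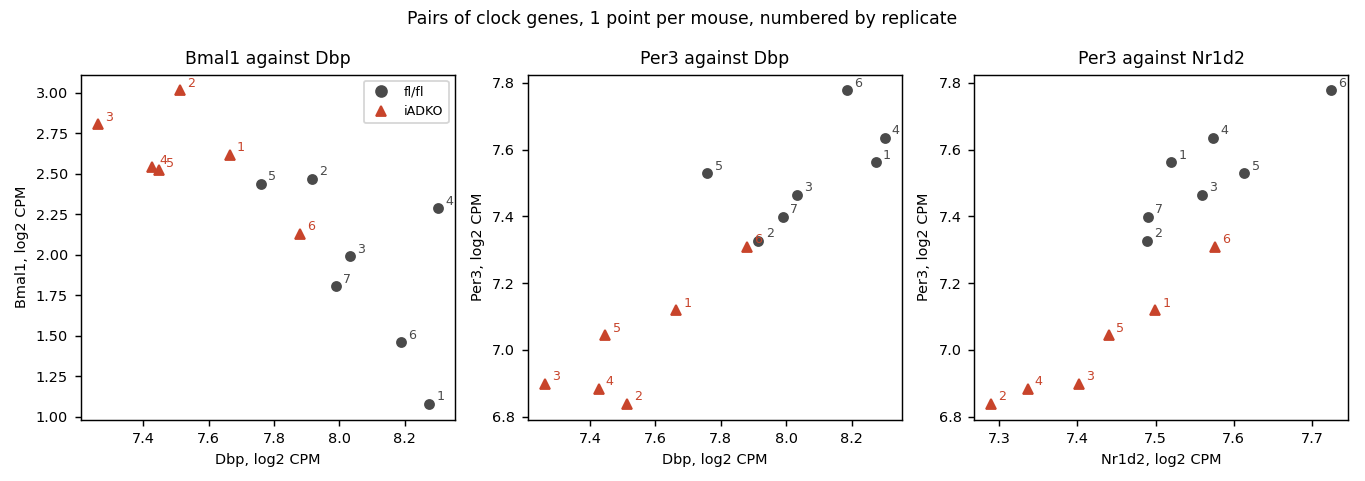
Log2 CPM of 3 pairs of clock genes, 1 point per mouse, with the replicate number beside it, circles for fl/fl and triangles for iADKO. *Per3* and *Nr1d2* rise together within each label (r = 0.861 in 7 fl/fl and 0.966 in 6 iADKO mice). For *Bmal1* and *Dbp* r was -0.608 and -0.661 (exact permutation p = 0.152 and 0.139), and this pair did not pass over all 13 libraries (adjusted p = 0.231, permutation test).

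None of the pairs picked from the wiring of the clock passed the adjustment in these 13 libraries. *Bmal1* and *Dbp* had opposite deviations (r = -0.598, rho = -0.533, permutation p = 0.0360, adjusted p = 0.231), with -0.507 when the 2 farthest libraries were left out, and *Bmal1* and *Nr1d1* had r of -0.346 (adjusted p = 0.436). The r of *Dbp* was 0.717 with *Per3* (adjusted p = 0.103) and 0.678 with *Nr1d1* (adjusted p = 0.122), and that of *Per1* with *Per2* was 0.756 (adjusted p = 0.103). Without the 2 farthest libraries these were 0.573, 0.624 and 0.469. The REV-ERB genes, both E-box targets, had r of only 0.166 (permutation p = 0.618). *Bmal1* had r of 0.316 with *Npas2* and -0.322 with *Cry1*, and *Clock* had 0.334 with *Npas2*. With 1 library left out, 1 to 4 pairs passed: 3 without fl/fl replicate 5, 2 without fl/fl replicate 7, 2 without iADKO replicate 3 and 4 without iADKO replicate 5.

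**Figure D4:**
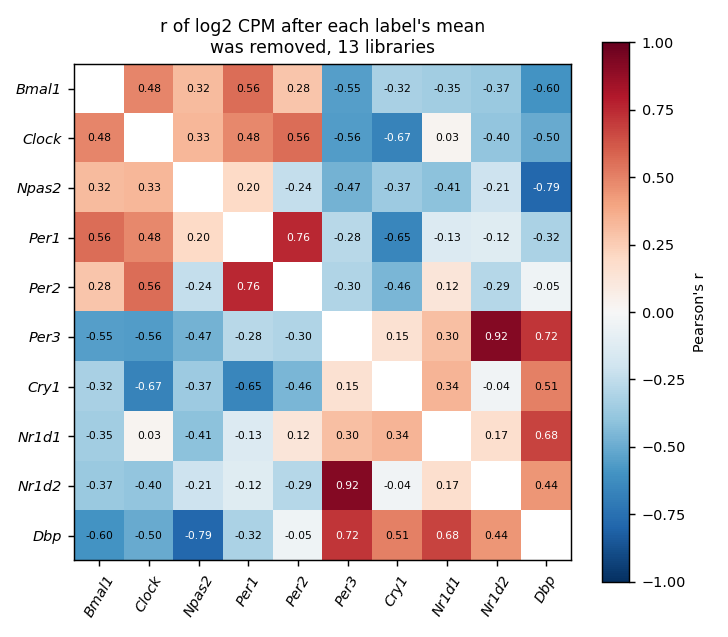
Pearson's r of log2 CPM for each pair of clock genes over 13 libraries after each label's mean was removed, from blue (-1) to red (1). *Per3*, *Nr1d2*, *Nr1d1* and *Dbp* have r above 0 with each other (0.17 to 0.92), and *Bmal1*, *Clock*, *Npas2* and *Per1* do so among themselves (0.20 to 0.56). These sets were picked after the values were seen, and only *Per3* with *Nr1d2* passed the adjustment. *Per2*, in neither set, has r of 0.756 with *Per1* and 0.556 with *Clock* but -0.24 with *Npas2*.

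The genes whose pattern over the 13 libraries was most like that of *Dbp*, by the same r among 13854 genes, were *Gpr146* (0.931), *Ctdspl* (0.901), *Pde1a* (0.898), *Vmac* (0.892) and *Pabir1* (0.881). *Btrc* was in place 36 of this order (0.824), *Tef* in place 52 (0.815), *Cry2* in place 136, *Prkaa1* in place 171, *Per3* in place 309 and *Nr1d1* in place 505. The other clock genes came later, with *Cry1* in place 1977, *Nr1d2* 2596, *Per2* 7378, *Per1* 9976, *Clock* 11665, *Bmal1* 12496 and *Npas2* 13702. The list genes named first were the highest of the lists, and *Hlf* was in place 3292 and *Nfil3* in place 12253. Most like *Bmal1* were *5830408C22Rik* (0.940), *Nedd9* (0.939), *Dpysl3* (0.915), *Samd14* (0.912) and *Rin1* (0.884), with *Per1* in place 1173 and *Clock* in place 1916. After them came *Npas2* in place 3738, *Per2* 4112, *Cry1* 9996, *Nr1d1* 10264, *Nr1d2* 10562, *Per3* 12334 and *Dbp* 12734. In an order of 13854 genes that holds few clock genes, non-clock genes are likely to come first, so these places are a description only.

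**Figure D5:**
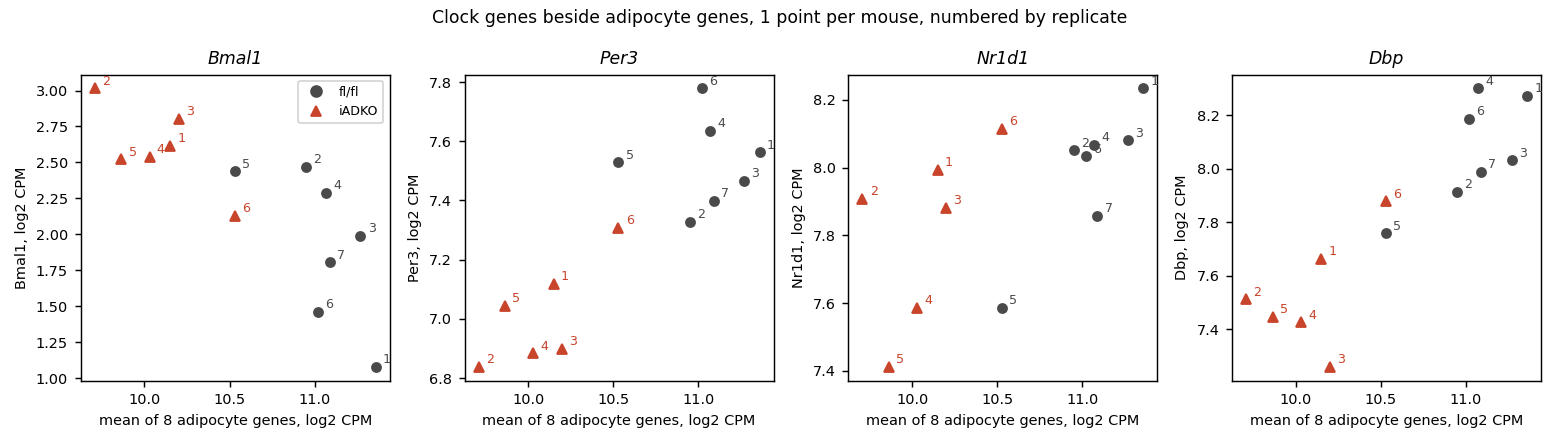
Log2 CPM of 4 clock genes on the y axes against the mean log2 CPM of 8 adipocyte genes on the x axes, 1 point per mouse, numbered by replicate. Replicate 5 of fl/fl and replicate 6 of iADKO meet at an adipocyte level of 10.53, where *Per3* and *Bmal1* are higher in the fl/fl library and *Nr1d1* and *Dbp* in the iADKO library. They are 1 mouse of each label, picked after the values were seen.

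The clock genes were also set beside marker genes of adipocytes and macrophages. After each label's mean was removed, the mean of the 8 adipocyte genes had r of 0.719 with *Nr1d1*, 0.631 with *Dbp*, -0.660 with *Bmal1* and 0.399 with *Per3* (adjusted p of 0.0711, 0.114, 0.0711 and 0.368 by the permutation test over 20 relations, n = 13), and none of the adipocyte relations passed. Without fl/fl replicate 5 and iADKO replicate 6, the libraries farthest out, these r were 0.474, 0.267, -0.516 and 0.251. The mean of the 7 macrophage genes had r of -0.738 with *Nr1d1* (adjusted p = 0.0320, rho = -0.643, adjusted p = 0.125) and -0.720 with *Dbp* (adjusted p = 0.0584, rho = -0.665). Without the same libraries, the 2 values for macrophage genes were -0.493 and -0.472, nearer to 0 but still negative, and were not tested. In these libraries, 1 mouse of each label picked after the values were seen, *Dbp* was at 217 and 235 CPM, *Bmal1* at 5.31 and 4.27 CPM and *Per3* at 185 and 158 CPM. Both were at the same mean level of the adipocyte genes, but the mean log2 CPM of the macrophage genes was 8.37 and 7.72. A comparison of 1 mouse with 1 mouse cannot show a difference between the labels. Of the other cell types, 2 of 5 T cell and 2 of 4 B cell genes were higher in iADKO, 2 of 4 endothelial genes were lower, and 0 of 4 progenitor, mesothelial and skeletal muscle genes each passed, beside 14.1% higher and 16.3% lower of all genes. The part of cell makeup in the differences of the clock genes was not tested.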

How the data were processed

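Whole pmWAT of 13 mice was sequenced, with the group and replicate number of each library read from its title. The authors deposited 2 tables, one of raw read counts for each gene and one of log2 values (DESeq2 rlog) made from these counts. The submitters' processing notes name FastQC 0.12.1, STAR 2.7.11a, DESeq2 and mm39, and the library kit was strand-specific. The counting tool, annotation and strand setting are not given in the sources used here. Of 33618 identifiers, 33184 were found in GENCODE vM39 on GRCm39, which gave symbols, exon lengths and promoter windows. Promoters were read from the GRCm39 genome, since the RefSeq promoter table is on another build.

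In R 4.3.3, counts were filtered with edgeR 4.0.16's filterByExpr, TMM-normalized and tested with its robust quasi-likelihood fit, two-sided, with Benjamini-Hochberg adjustment over 16753 genes and a threshold of 0.05. Log2 CPM had a prior count of 2. The authors' own test was DESeq2 with no stated design, which was run as an alternative. Single values were also compared by an exact permutation test (1716 arrangements). p-values measure the spread between these mice, and that spread includes the counting error. Chi-square values of library pairs within labels were 5.94 to 61.1 per degree of freedom, so none was a copy. The fit was tested on simulated counts.

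The clock genes, the lists and the tests were chosen with earlier results of these data known. Genes named are all clock genes, *Lmna*, up to 6 genes past the threshold per list and those not testable, 9 pairs chosen from the clock's wiring, and the 5 genes most like *Dbp* and *Bmal1* whose log2 CPM averaged 1 or more. Genes outside this rule, named with values that did not pass, were chosen after their values were seen. One gene of the lists is not reported here, and counts leave it out. Alternatives were DESeq2 size factors, DESeq2 1.42.0's Wald test, no filter, limma 3.58.1 on the rlog values, the replicate number or the animal-number range as a block, a prior count of 0.5 and each library left out. Leaving out fl/fl replicate 5 with iADKO replicate 6, and the relations with marker genes, were added after seeing the data.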

Additional observations from a re-analysis of the deposited data

How the results depend on the processing

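The directions and calls of *Per3* held under every alternative that was tested. *Bmal1* was not called with no filter on low counts (0.62) or with the animal-number range as a block (0.48), and within the range of 2 mice of each label its difference was -0.028. *Dbp* was not called with the range as a block (-0.44). *Nr1d2* was called by the Wald test (-0.16), the replicate block (-0.16), limma on the rlog values (-0.12), the exact permutation test, which is not adjusted (-0.14), and without fl/fl replicate 5 and iADKO replicate 6 (-0.19), where *Nr1d1* was also called (-0.31). *Cry1* was below 0 with size factors (-0.0093), the Wald test (-0.0094), no filter (-0.0084), rlog values (-0.0012) and without those 2 libraries (-0.11). Clock genes called higher were 0 with no filter and 0 with the range as a block, and those called lower were 1 with the range as a block and 4 without the 2 libraries. With the range as a block, 1986 genes were called in all in place of 5104. The kinase, ligase and corepressor count was 9 by the Wald test, 2 with the range as a block and 8 without the 2 libraries. The labels do not say that the replicate numbers pair the samples. Of 6 correlations of same-numbered deviations, 3 were over 0.1 (range -0.0265 to 0.217). These were not compared with differently numbered pairs, so they cannot decide whether the samples are paired. The replicate block left 4839 genes called, 8 rhythmic output genes in place of 5, 5 other loop genes in place of 3 (also 5 by the Wald test), and 0 pairs, where 6 differences cannot bring 1 pair below an adjusted p of 0.0625. The same limit holds within iADKO (0 pairs, 5 unadjusted), and within fl/fl 0 pairs passed and 4 did unadjusted. Pairs with the range as a block were not run, because 192 shuffles cannot pass. With 1 library left out, log2 fold changes were 0.52 to 0.73 for *Bmal1*, -0.61 to -0.48 for *Dbp*, -0.17 to -0.11 for *Nr1d2*, -0.23 to -0.092 for *Nr1d1* and -0.041 to 0.083 for *Cry1*. Counts were 4001 to 6619 genes, 0 to 1 clock gene higher, 2 to 3 lower, 2 to 4 other loop genes, 3 to 8 kinase, ligase and corepressor genes, 5 to 8 output genes, 1 to 2 glucocorticoid genes and 1 to 4 pairs. The cause of these changes was not tested. *Bmal1* and *Npas2* had at most 171 and 46 reads in a library.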
